A study of Canis lupus familiaris with 6 samples.

Results

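Interleukins act on blood cells through paired receptor chains that have no enzyme activity of their own and lean on Janus kinases (JAKs) bound to their tails. Binding of an interleukin brings the chains together, the kinases phosphorylate the chains and then STAT transcription factors, and the STATs enter the nucleus. Chains are shared: the common gamma chain serves the receptors of several lymphocyte growth factors, gp130 serves the IL-6 family, and the IL-10 receptor is built from a ligand-binding chain and a chain that it shares with related cytokines. The 10 receptor genes described here were chosen by name as chains of interleukin receptors that signal through JAKs: IL2RG, IL2RB, IL4R, IL7R, IL15RA, IL6ST, IL6R, IL27RA, IL10RA and IL10RB. All 10 were among the 31512 genes in the expression table, and all 10 were among the 9847 genes tested.

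The study compared whole blood of Beagle dogs aged 1.5 years after 30 days on a daily 30 g snack. The control group (CONT) received the snack alone, and the CPP-Se group received the same snack with 0.03% CPP-Se, a selenium chelate of casein phosphopeptides, the phosphate-rich fragments of milk casein. RNA from the blood of 3 dogs per group was sequenced, with 1 library per dog. Sex was not given in the sources used here. The question was which blood genes differ with the supplement. Levels are given in FPKM, the fragments counted on a gene, scaled to the length of its model and to the size of the library, so that genes of different length can be set side by side. A fold change is the difference of group means of log2(FPKM + 1), which understates differences of genes near 1 FPKM, and its SE and adjusted p come from limma with Benjamini-Hochberg adjustment over all genes tested. A gene was called at an adjusted p under 0.05 with a fold change of at least 1.5.

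Between 6598173 and 8067034 reads per dog fell on genes. CPP-Se replicate 2 stood apart: 8 hemoglobin genes took 36.6% of its reads, against 48.7% to 55.9% in the other dogs, and its FPKM values summed to 303449, against 458774 to 540009 in the others. The library size behind its FPKM was 1.65 times its reads on genes (0.882 to 1.05 times in the others), but its typical gene was level with the other dogs, with a median ratio scaling factor of 0.984 against 0.995 to 1.01. Results without it are given below. The test called 3 of the 9847 genes (0.0305%), all lower in CPP-Se, but this direction did not hold in other fits, with 9 higher and 5 lower without CPP-Se replicate 2 and 1 higher without CPP-Se replicate 1. An unadjusted p under 0.05 was reached by 1572 genes (16.0%). All 3 CPP-Se dogs lay above all 3 CONT dogs for 1025 genes (10.4%) and below them for 1244 genes (12.6%).

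None of the 10 receptor genes was called, against 0.0305% of all genes tested. In CPP-Se dogs the levels of IL2RB and IL27RA were each 1.74-fold higher on this scale, while that of IL10RA was 0.516 times that of CONT, with no overlap between groups for any of these 3. Every CPP-Se dog also had more IL2RG and IL6ST, and less IL6R, than every CONT dog. Of the 10 genes, 4 reached an unadjusted p under 0.05 in limma, IL2RB and IL27RA in the higher direction and IL6R and IL10RA in the lower, against 16.0% of all genes. Those without overlap were 4 higher and 2 lower, against 10.4% and 12.6% of all genes. The groups overlapped for IL4R, IL7R, IL15RA and IL10RB. The median log2 fold change was 0.26 over the 10 genes and -0.0043 over all genes tested, but the former was -0.013 without CONT replicate 3, 0.027 without CPP-Se replicate 3 and 0.024 with voom and sample quality weights. IL6ST entered the test only through the CPP-Se dogs, since its level was under 1 FPKM in all 3 CONT dogs, in replicate 3 by less than rounding shows. Over the other 9 genes the median was 0.11, 3 lay higher and 2 lower without overlap, and 2 in each direction had an unadjusted p under 0.05.

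**Figure D1:**
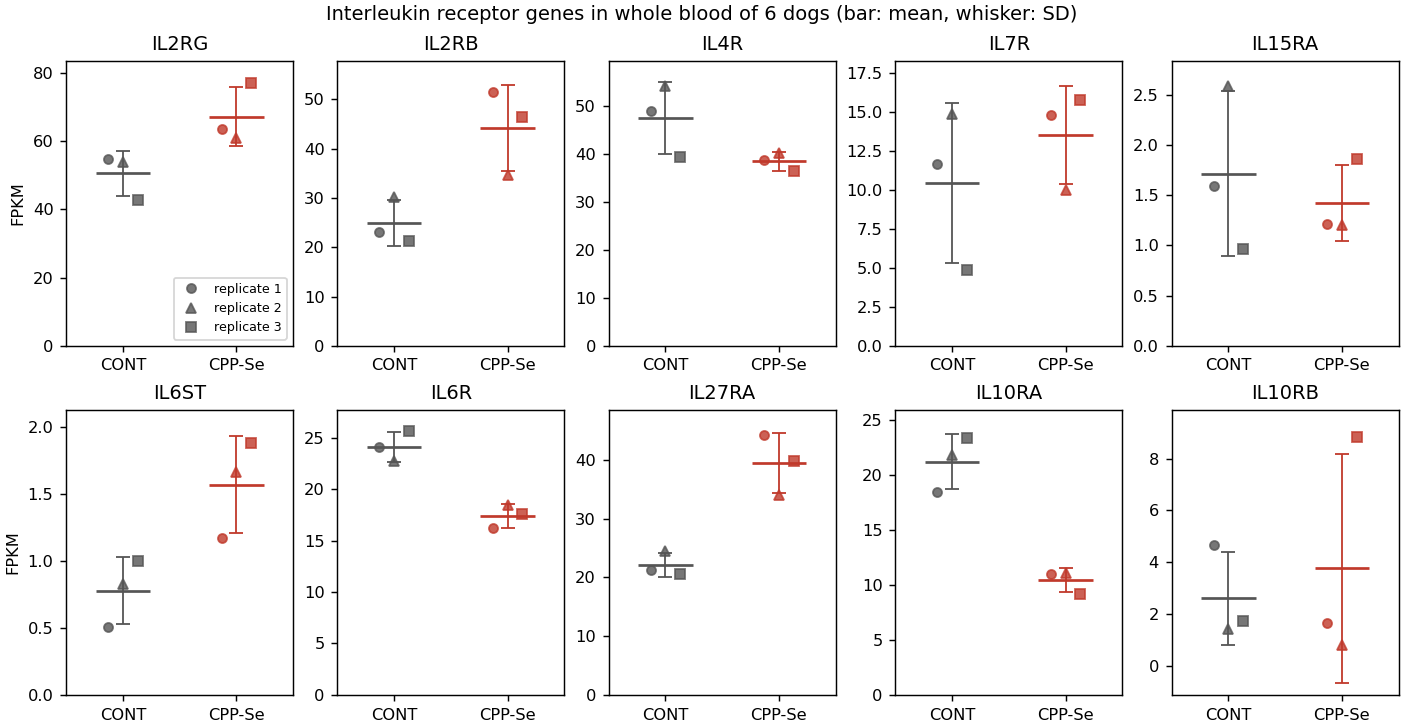
Level of each receptor gene in FPKM (linear vertical axis, a separate scale for each gene) in the 3 CONT and 3 CPP-Se dogs. Points are dogs, bars are group means and whiskers are SD (n = 3). For IL2RB, IL27RA, IL2RG and IL6ST all CPP-Se dogs sit above all CONT dogs, and for IL6R and IL10RA all sit below. The wide spread of IL10RB comes with 1 CPP-Se dog at 8.83 FPKM.

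The common gamma chain, IL2RG (ENSCAFG00000028978, chrX:55481092-55484751, minus strand, in the dog genome of Ensembl release 100, as are all positions here), pairs with the specific chains of the IL-2, IL-4, IL-7 and IL-15 receptors and binds JAK3. It had the highest level of the 10 genes in both groups, at 54.9, 54.0 and 42.8 FPKM in CONT dogs and 63.5, 60.9 and 77.1 FPKM in CPP-Se dogs. The lowest CPP-Se dog lay above the highest CONT dog. Group means were 50.6 ± 6.70 and 67.2 ± 8.65 FPKM (SD, n = 3), and the log2 fold change of 0.40 (SE 0.19, adjusted p = 0.361) had a 95% interval from -0.04 to 0.85. The span of IL2RG shares 2739 bases with MED12 on the other strand, whose log2 fold change was 0.18 (adjusted p = 0.707). Whether reads were counted by strand is not given in the sources used here, so reads of the shared stretch cannot be assigned to either gene.

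IL2RB (ENSCAFG00000001511, chr10:27370797-27388775, plus strand) encodes the beta chain shared by the IL-2 and IL-15 receptors, which binds JAK1 and carries the STAT5 signal in T cells and NK cells. Its level was 23.1, 30.1 and 21.4 FPKM in CONT dogs and 51.5, 34.6 and 46.5 FPKM in CPP-Se dogs. The groups did not overlap, although CPP-Se replicate 2 and CONT replicate 2 came close. Means were 24.9 ± 4.66 and 44.2 ± 8.68 FPKM (SD, n = 3), a log2 fold change of 0.80 (SE 0.22, 95% interval 0.28 to 1.32, adjusted p = 0.184 in limma). It rested on 642 to 1879 reads per dog. In whole blood a larger number of cells of a type and more RNA per cell cannot be told apart.

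IL4R (ENSCAFG00000017447, chr6:19254487-19389291, minus strand), the IL-4 receptor alpha chain that leads to STAT6, lay in the other direction. Its level was 48.8, 54.2 and 39.2 FPKM in CONT dogs and 38.6, 40.2 and 36.3 FPKM in CPP-Se dogs. The CPP-Se dogs were close to each other, and the lowest CONT dog lay among them. The log2 fold change was -0.29 (SE 0.19, 95% interval -0.72 to 0.15, adjusted p = 0.503). It was -0.19 without CONT replicate 2 and -0.13 after scaling to a common FPKM sum. The annotated span of IL4R also holds NSMCE1 and KDM8, with log2 fold changes of -0.27 and -0.28 (adjusted p = 0.677 and 0.706).

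IL7R (ENSCAFG00000018752, chr4:72636325-72668300, minus strand) encodes the IL-7 receptor alpha chain, which naive and memory T cells need to survive. It was measured at 11.7, 14.9 and 4.86 FPKM in CONT dogs and at 14.8, 9.98 and 15.8 FPKM in CPP-Se dogs. The overlap was wide, and CONT replicate 3 held the lowest value. The log2 fold change of 0.44 (SE 0.38, adjusted p = 0.613) had a 95% interval from -0.43 to 1.31, and without CONT replicate 3 it was 0.01. IL15RA (ENSCAFG00000005213, chr2:29981234-30038945, plus strand), which holds IL-15 at the cell surface and presents it to the beta and gamma chains, rested on 15 to 32 reads per dog. Its level was 1.71 ± 0.820 FPKM in CONT and 1.42 ± 0.376 FPKM in CPP-Se (SD, n = 3), and the groups overlapped. The log2 fold change was -0.13 (SE 0.29, 95% interval -0.80 to 0.54, adjusted p = 0.864), and 0.092 without CONT replicate 2.

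IL6ST (ENSCAFG00000006897, chr2:43214050-43248124, minus strand) encodes gp130, the signal-transducing chain of the IL-6 family, which binds JAK1, JAK2 and TYK2 and leads mainly to STAT3. Its level was 0.508, 0.825 and 1.00 FPKM in CONT dogs and 1.17, 1.66 and 1.88 FPKM in CPP-Se dogs, from 25 to 160 reads per dog. Every CPP-Se dog lay above every CONT dog, by a narrow margin at the closest pair. The log2 fold change on the scale of FPKM + 1 was 0.53 (SE 0.26, 95% interval -0.07 to 1.13, adjusted p = 0.363), while group means of 0.778 ± 0.250 and 1.57 ± 0.364 FPKM (SD, n = 3) were further apart than this scale shows.

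IL6R (ENSCAFG00000017184, chr7:42880885-42920090, minus strand), the IL-6-binding chain that needs gp130 to signal and is found on monocytes, neutrophils and some T cells, lay lower in CPP-Se. Its level was 24.1, 22.7 and 25.6 FPKM in CONT dogs and 16.2, 18.5 and 17.5 FPKM in CPP-Se dogs. Both groups were tight and did not overlap. The means of 24.1 ± 1.46 and 17.4 ± 1.15 FPKM (SD, n = 3) gave a log2 fold change of -0.45 (SE 0.16, 95% interval -0.83 to -0.07, adjusted p = 0.257). It was -0.30 after scaling to a common FPKM sum (unadjusted p = 0.411 in limma) and -0.31 without hemoglobin genes (unadjusted p = 0.256). Those scalings also raised the median of all genes. With a replicate block in limma the unadjusted p was 0.066.

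IL27RA (ENSCAFG00000016504, chr20:48457134-48472450, minus strand), the chain that pairs with gp130 to bind IL-27, is expressed by T cells and NK cells. It was measured at 21.3, 24.5 and 20.6 FPKM in CONT dogs and at 44.2, 34.1 and 39.9 FPKM in CPP-Se dogs. The groups were well separated. Means were 22.1 ± 2.07 and 39.4 ± 5.10 FPKM (SD, n = 3), a log2 fold change of 0.80 (SE 0.18, 95% interval 0.38 to 1.22, adjusted p = 0.144 in limma). The chains that use gp130 thus stood on opposite sides, with the IL-27-binding chain higher and the IL-6-binding chain lower in CPP-Se, although neither passed the test.

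IL10RA (ENSCAFG00000012844, chr5:15677547-15682163, minus strand) encodes the IL-10-binding chain, through which JAK1 and STAT3 restrain inflammatory genes in myeloid cells. Its level was 18.4, 21.8 and 23.3 FPKM in CONT dogs and 11.0, 11.1 and 9.20 FPKM in CPP-Se dogs. The highest CPP-Se dog lay well below the lowest CONT dog. Means were 21.2 ± 2.49 and 10.4 ± 1.07 FPKM (SD, n = 3). The log2 fold change of -0.96 (SE 0.18, 95% interval -1.37 to -0.54) was furthest from 0 among the 10 genes in limma on all 6 dogs. In voom IL6ST was further (1.03 against -1.01), also with quality weights (1.17 against -0.91). Without CONT replicate 2 IL2RB was further (0.942 against -0.932). After scaling to a common FPKM sum IL27RA was further (0.953 against -0.805, and 0.944 against -0.816 without hemoglobin genes). The adjusted p of IL10RA was 0.138 in limma, and it ranked 43 by p among all genes tested.

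IL10RB (ENSCAFG00000009071, chr31:27892394-27915637, plus strand), the second chain of the IL-10 receptor, binds TYK2 and also serves receptors of IL-22, IL-26 and the lambda interferons. It was measured at 4.68, 1.41 and 1.73 FPKM in CONT dogs and at 1.66, 0.798 and 8.83 FPKM in CPP-Se dogs, from 11 to 66 reads per dog. The highest and the lowest value both came from the CPP-Se group. The log2 fold change of 0.11 (SE 0.63, adjusted p = 0.951) had a 95% interval from -1.34 to 1.56, and it was -0.61 without CPP-Se replicate 3.

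**Figure D2:**
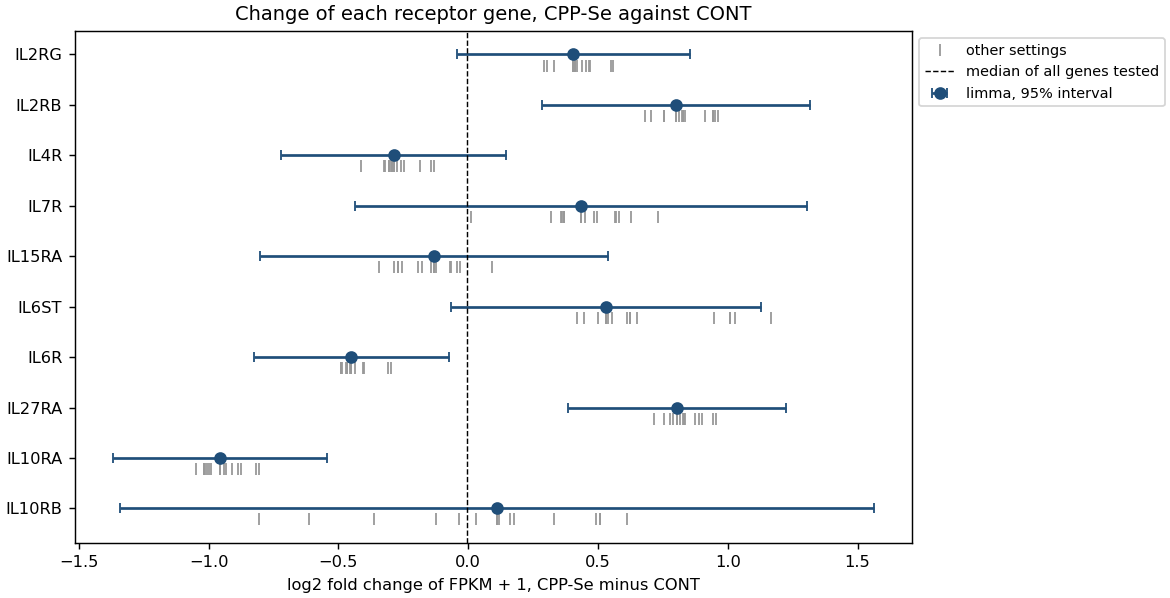
Log2 fold change of FPKM + 1 (CPP-Se minus CONT) of each receptor gene from limma, with its 95% interval. Grey ticks give the value under each other processing setting, and the dashed line is the median of all genes tested at -0.0043. The intervals of IL2RB, IL27RA, IL6R and IL10RA do not reach 0, and the ticks of IL10RB lie on both sides of it.

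Other models called some of these genes. A negative binomial model on the reads recovered from the FPKM values called 3 of the 10, IL2RB (log2 fold change 0.83, adjusted p = 0.0431), IL27RA (0.83, 0.00542) and IL10RA (-1.02, 0.00322), against 376 of all 9847 genes (3.82%). With a t reference in place of a normal one, the same model called none of the 10, and also 0 of all 9847 genes. Its adjusted p was 0.359 for IL2RB, 0.293 for IL27RA and 0.293 for IL10RA. In that fit 5 of the 10, IL6ST among them, had an unadjusted p under 0.05, against 1093 of all 9847 genes. The voom model without weights also called none of the 10, against 1 of all 9847 genes. There 5 of the 10, again with IL6ST, had an unadjusted p under 0.05, against 1590 of all genes. The voom model with sample quality weights called IL27RA alone (0.89, adjusted p = 0.0445), against 156 of all genes (1.58%). Without CPP-Se replicate 2, the log2 fold change was 0.96 for IL2RB (adjusted p = 0.148), 0.90 for IL27RA (adjusted p = 0.138) and -1.0 for IL10RA (adjusted p = 0.137) in limma. In that fit the others were 0.47 for IL2RG, -0.32 for IL4R, 0.63 for IL7R, -0.07 for IL15RA, 0.50 for IL6ST, -0.49 for IL6R and 0.61 for IL10RB. None of the 10 was called there, against 14 of all 9847 genes.

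Within a dog, levels per kilobase spanned a wide range. In CONT, IL2RG and IL4R (47.4 ± 7.55 FPKM) overlapped at the top and stood above all others. IL2RB, IL6R, IL27RA and IL10RA followed in that order, each overlapping with the next. IL7R (10.5 ± 5.13 FPKM) came next and overlapped with no other gene. IL10RB, IL15RA and IL6ST stood at the bottom in that order, each overlapping with the next. In CPP-Se, IL2RG stood alone at the top, followed by IL2RB, IL27RA and IL4R (38.4 ± 1.93 FPKM), each overlapping with the next. IL6R was separate from its neighbours, IL7R (13.5 ± 3.12 FPKM) overlapped with IL10RA, and IL10RB, IL6ST and IL15RA overlapped at the bottom. All levels depend on the gene models, which run from 1221 to 7216 bases here. The lengths of 5 of them, those of IL2RG, IL6R, IL10RA, IL10RB and IL27RA, are multiples of 3.

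Ratios between chains that work together were computed within each dog. The ratios are of FPKM and do not depend on scaling between libraries, whereas the log2 differences and their tests use FPKM + 1 and depend on it for genes of low level. Of the 7 ratios, 4 separated the groups. Separation by itself gives a two-sided exact permutation p of 0.1, the smallest that 3 against 3 dogs can give. How often other pairs of genes separate was not computed, so the count has no background to be read against. The genes were chosen with earlier results of these data known, and each ratio restates the levels of its genes. IL4R and the gamma chain had near equal levels in CONT dogs, with ratios of 0.890, 1.00 and 0.916, while the CPP-Se dogs had 0.608, 0.659 and 0.472 (log2 difference -0.69). The ratio of the beta to the gamma chain (IL2RB to IL2RG) was 0.421, 0.559 and 0.499 in CONT dogs and 0.810, 0.567 and 0.603 in CPP-Se dogs. These values did not overlap (log2 difference 0.40), but the closest pair differed little, and without CPP-Se replicate 1 the log2 difference was 0.24. IL15RA to IL2RB was 0.0688, 0.0859 and 0.0451 against 0.0235, 0.0347 and 0.0399 (log2 difference -0.93). The closest pair, CONT replicate 3 and CPP-Se replicate 3, rested on 15 and 22 reads of IL15RA. IL15RA by itself overlapped between groups, with a log2 fold change of -0.13 against 0.80 for IL2RB. The ratio of the IL-6-binding chain to gp130 (IL6R to IL6ST) was 47.4, 27.5 and 25.6 in CONT dogs and 13.9, 11.1 and 9.33 in CPP-Se dogs, a log2 difference of -0.98 after adding 1 to each level and of -1.42 after adding 0.1. IL6ST passed the filter only through its higher CPP-Se levels, so this separation supports nothing beyond what IL6R and IL6ST show alone. Without the pairs that hold IL6ST 3 of 5 ratios separated the groups, also with no background share. The ratios of IL7R to IL2RG, IL27RA to IL6ST and IL10RA to IL10RB overlapped between groups, with log2 differences of 0.03, 0.27 and -1.07 and exact permutation p of 1, 0.5 and 0.3. For IL10RA to IL10RB the log2 difference was -0.26 without CPP-Se replicate 3 and -1.61 without CPP-Se replicate 2. The direction for IL27RA to IL6ST turned with a pseudocount of 0.1 (-0.12) and its size was 0.068 without CPP-Se replicate 1 and 0.13 without CONT replicate 3, and the direction for IL7R to IL2RG turned without CONT replicate 3 (-0.28) or CPP-Se replicate 1 (-0.08).

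**Figure D3:**
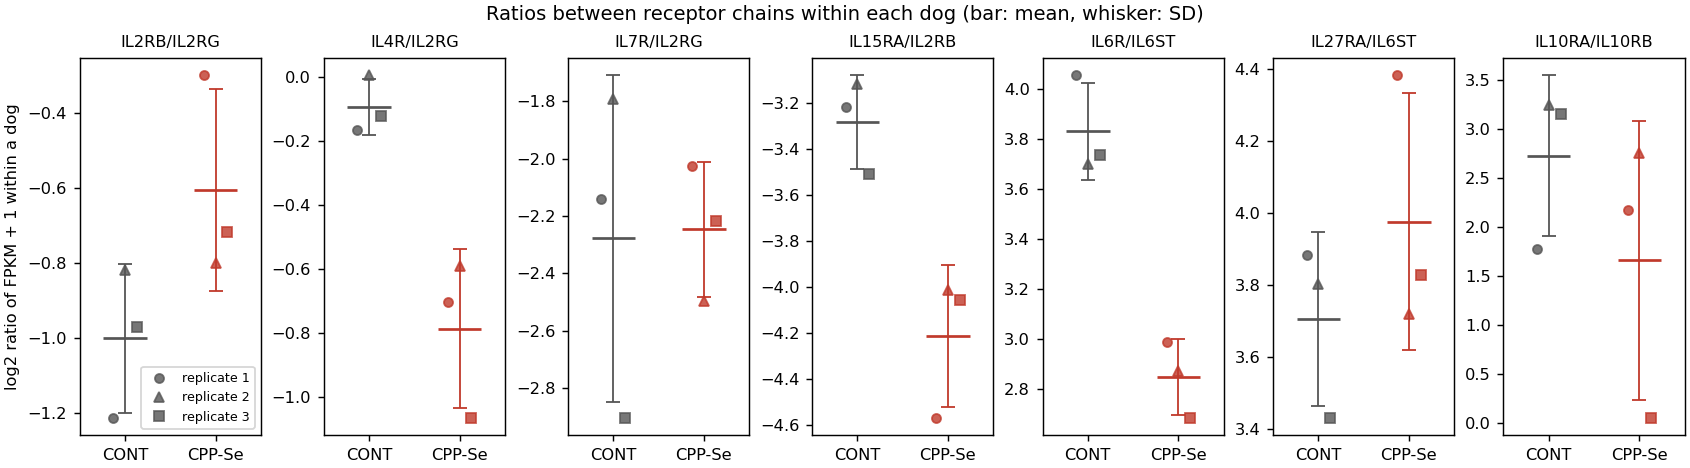
Log2 ratio of FPKM + 1 between 2 receptor chains of the same dog, for 7 pairs (a separate vertical scale for each). Points are dogs, bars are means and whiskers are SD (n = 3). The groups are apart for IL2RB to IL2RG, IL4R to IL2RG, IL15RA to IL2RB and IL6R to IL6ST, and they overlap for the other pairs.

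The interleukins that bind these receptors left few reads in blood. Of 19 ligand genes listed, 18 were in the table, 12 had at most 3 reads in every dog, and IL6, IL9, IL11, IL21 and IL22 were at 0 in all 6 dogs, which allows up to 3 reads per library. Only CLCF1 and EBI3 were tested, with log2 fold changes of -0.06 and -0.07, and neither reached an unadjusted p under 0.05. IL15, the ligand that IL15RA presents, had 15, 7 and 8 reads in CONT dogs and 3, 3 and 4 in CPP-Se dogs, which is 2.08, 1.04 and 0.943 FPKM against 0.444, 0.213 and 0.620 FPKM. Every CPP-Se dog lay below every CONT dog for IL15, on few reads, and the filter on low levels kept it out of the test. IL10 had 0 reads in all CONT dogs and 0, 9 and 1 in CPP-Se dogs.

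Of 9 other cytokine receptor chains tested, none was called. In each direction 1 had an unadjusted p under 0.05 (16.0% of all genes did), IL21R higher and IFNGR1 lower. IL21R had 12.2, 17.0 and 5.08 FPKM in CONT dogs and 25.3, 23.7 and 16.2 FPKM in CPP-Se dogs. Its groups overlapped, and CONT replicate 3 lay far below the others (log2 fold change 0.98, SE 0.39, adjusted p = 0.283). IL12RB1, a chain shared by the IL-12 and IL-23 receptors, had 1.18 ± 0.113 FPKM in CONT and 2.78 ± 1.84 FPKM in CPP-Se (SD, n = 3; log2 fold change 0.70, SE 0.34, adjusted p = 0.363), with all CPP-Se dogs higher. The CPP-Se dogs had 4.89, 1.49 and 1.97 FPKM, and the highest CONT dog had 1.28 FPKM, so replicate 1 set most of this difference. IFNGR1, the interferon gamma-binding chain, had 36.1 ± 4.03 against 25.3 ± 3.03 FPKM (SD, n = 3; -0.50, SE 0.18, adjusted p = 0.258), with all CPP-Se dogs lower.

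All 11 JAK and STAT genes were tested and none was called, against 0.0305% of all genes, while 2 lay higher and 2 lower without overlap, against 10.4% and 12.6% of all genes. JAK3, the kinase that binds the gamma chain, had 12, 14.1 and 8.19 FPKM in CONT dogs and 20.3, 16.0 and 17.5 FPKM in CPP-Se dogs. It did not overlap, as its partner IL2RG did not, and its log2 fold change was 0.63 (SE 0.23, adjusted p = 0.253). STAT4, which acts downstream of IL-12, had a log2 fold change of 0.63 (SE 0.28, adjusted p = 0.336) without overlap. Its level was 3.76, 3.75 and 2.98 FPKM in CONT dogs and 4.45, 4.70 and 9.66 FPKM in CPP-Se dogs, with CPP-Se replicate 3 well above the others. STAT3, used by IL-6, IL-10 and IL-27 receptors, lay lower without overlap, with 44.7 ± 5.44 FPKM in CONT and 31.7 ± 3.61 FPKM in CPP-Se (SD, n = 3; -0.48, SE 0.18, adjusted p = 0.270), and so did STAT6 of the IL-4 receptor (-0.30, SE 0.18, adjusted p = 0.455). The median log2 fold change of the 11 genes was -0.10.

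Among 13 inhibitors of the pathway tested, 2 lay higher and 4 lower without overlap (10.4% and 12.6% of all genes did), none was called, and the median log2 fold change was -0.23. PTPN1, a phosphatase that acts on JAK2 and TYK2, had 68.1 ± 1.68 FPKM in CONT and 38.4 ± 6.21 FPKM in CPP-Se (SD, n = 3; log2 fold change -0.82, SE 0.19, adjusted p = 0.144). SOCS1, which blocks JAK kinases and is itself induced by STATs, had 3.73 ± 1.90 against 13.1 ± 12.1 FPKM (SD, n = 3; 1.33, SE 0.56, adjusted p = 0.303). The CPP-Se dogs varied widely, at 27.1, 5.68 and 6.60 FPKM, and the highest CONT dog had 5.65 FPKM. These levels rested on 7 to 103 reads per dog, and CPP-Se replicate 1 set the high mean. SOCS6 (0.56), SOCS7 (-0.45) and SH2B3 (-0.40), an adaptor that restrains JAK2, also did not overlap, with adjusted p of 0.366, 0.372 and 0.345. SOCS6 passed the filter only through the CPP-Se dogs (group means 0.662 and 1.46 FPKM). For SOCS7 the closest CONT and CPP-Se dogs had 1.85 and 1.82 FPKM, on 16 to 44 reads per dog.

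Of 17 genes tested that STATs are known to induce or that mark their effect in lymphocytes, 5 lay higher and 4 lower without overlap (10.4% and 12.6% of all genes did), none was called, and the median log2 fold change was 0.11. TBX21, the T-bet factor of Th1 and NK cells, had 4.26 ± 1.93 FPKM in CONT and 14.1 ± 3.55 FPKM in CPP-Se (SD, n = 3; log2 fold change 1.55, SE 0.29, adjusted p = 0.138). PRF1, the pore-forming perforin of cytotoxic cells, had 4.47 ± 0.871 against 12.6 ± 2.55 FPKM (SD, n = 3; 1.31, SE 0.21, adjusted p = 0.138). The survival gene BCL2L1 had a log2 fold change of 0.92 (SE 0.24, adjusted p = 0.176). BCL6, a repressor that guides follicular helper T cells and germinal centre B cells, was lower in all CPP-Se dogs (-0.92, SE 0.21, adjusted p = 0.144), as were the survival gene MCL1 (-0.58, SE 0.19, adjusted p = 0.227) and the AP-1 gene JUNB (-0.55, SE 0.19, adjusted p = 0.231).

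**Figure D4:**
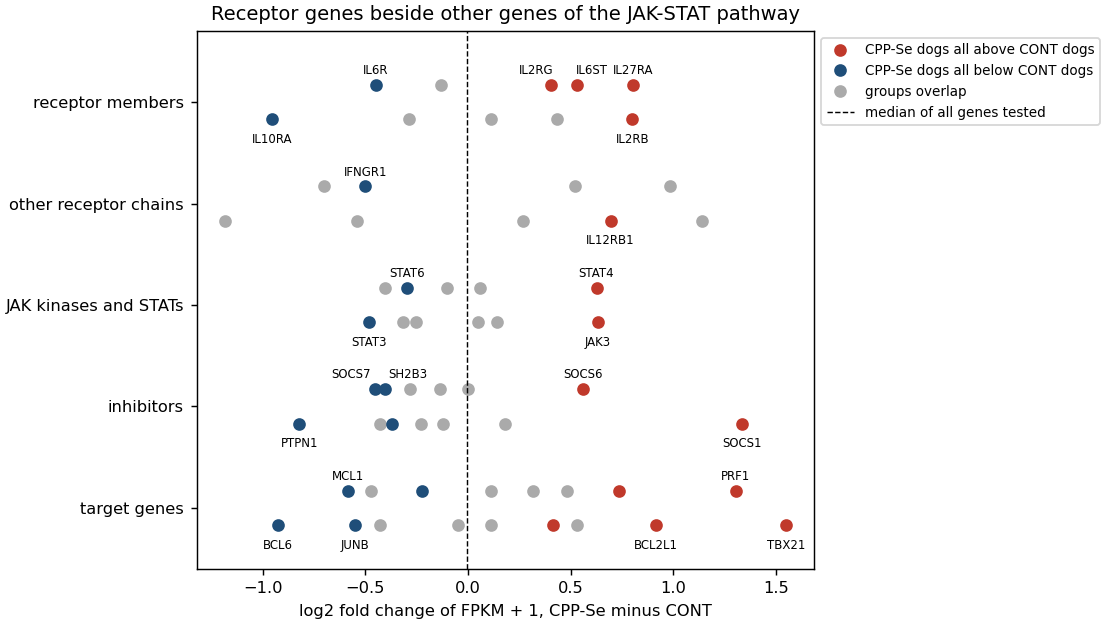
Log2 fold change of FPKM + 1 (CPP-Se minus CONT, horizontal axis) of the 10 receptor genes and of the tested genes of 4 lists of the pathway. Each point is a gene, coloured by whether the 3 CPP-Se dogs lie all above, all below or among the 3 CONT dogs, and the vertical position within a list has no meaning. Genes without overlap stand on both sides of 0 in every list.

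Markers of blood cell types were measured in the same fit, and none was called in limma. Genes of the study's own list of differing genes, made from the same dogs, had been left out of these marker lists. The absence of calls therefore says little about the cell types. Counts of markers without overlap are to be read against 10.4% of all genes higher and 12.6% lower. Levels of B cell markers, summed in each dog, ran from 306 to 421 FPKM in CONT and from 458 to 493 FPKM in CPP-Se, and 4 of 11 tested lay higher without overlap and none lower. CD79A made up most of this sum and itself overlapped between groups (329, 304 and 233 FPKM in CONT dogs and 385, 295 and 358 FPKM in CPP-Se dogs). Of 12 T cell markers tested, 4 lay higher and 1, CD4, lower without overlap. The summed T cell markers ran from 1055 to 1382 FPKM in CONT and from 859 to 1010 FPKM in CPP-Se, and without CD4, which made up most of this sum, from 126 to 206 and from 215 to 281 FPKM. For NK and cytotoxic cells 1 of 8 markers in each direction did not overlap, and the sums of 24.4 to 49.2 and 43.0 to 76.5 FPKM did. Monocyte markers summed to 333 to 471 FPKM in CONT and 253 to 257 FPKM in CPP-Se. Of 7 tested, 4 lay lower without overlap while the other 3 overlapped. CD68, the largest part of this sum, was among those that overlapped. It had 161, 132 and 247 FPKM in CONT dogs and 109, 117 and 145 FPKM in CPP-Se dogs. Neutrophil markers summed to 1167 to 2115 and 1276 to 1875 FPKM, with 2 of 7 lower without overlap. Platelet markers overlapped in all 4 cases, as did the 7 red cell markers tested. IL2RB, IL27RA and IL2RG lay on the side of the summed B cell markers and of the T cell markers without CD4. So did IL6ST, which passed the filter only through the CPP-Se dogs. IL6R and IL10RA lay on the side of the summed monocyte markers. The full T cell sum was lower in CPP-Se, and only without CD4, left out after its value was seen, was it higher. The part of cell composition in these differences was not tested.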

How the data were processed

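Whole blood RNA of 3 CONT and 3 CPP-Se dogs had been sequenced after 30 days. Per the labels and the study's methods, the authors cleaned reads with fastp 0.19.7, aligned them with HISAT2 2.0.5, counted them per gene with featureCounts 1.5.0-p3 and deposited FPKM per gene and dog for the dog annotation of Ensembl release 100. The settings for strand and for reads of several positions, and the library size behind each FPKM, are not given in the sources used here. Multiplying FPKM by gene length and by 1 constant per library, found from the low values, gave whole reads (within 0.1 read) for 100% of values. These recovered reads were used for depth and for the alternatives on reads, and intervals and floors from them cover counting error only.

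Groups followed the labels, and each library was 1 dog. Genes averaging 1 FPKM or more across all 6 dogs were tested as log2(FPKM + 1) with limma 3.58.1 (lmFit, eBayes with a trend, two-sided) in R 4.3.3. Benjamini-Hochberg adjustment ran over all 9847 genes tested. Ratios of chains were compared by exact permutation in Python 3.11.15 with scipy 1.17.1. Scripts were tested on simulated data. Alternatives were other pseudocounts, filters and scalings, limma-voom with and without sample quality weights, a negative binomial model, a replicate block and leaving out each dog. The way the negative binomial model sets its spread between dogs was settled on simulated data after its first calls had been seen.

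The 10 receptor genes and the lists of pathway genes and cell markers were chosen with earlier results of these data known. IL2RB, IL27RA, IL10RA and some pathway genes are in the study's own list of differing genes, made from the same dogs, and genes of that list were kept out of the marker lists only. Named genes were the 10 receptor genes and, from each pathway list, the genes called and up to 3 in each direction with the lowest p among those without overlap. The ligands IL15 and IL10, the neighbours of IL2RG and IL4R, IL21R, CD4, CD79A, CD68 and the zero genes were named after their values were seen. So was the sum of T cell markers without CD4.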

Additional observations from a re-analysis of the deposited data

How the results depend on the processing

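IL2RB, IL2RG, IL4R, IL6R, IL6ST, IL7R, IL10RA and IL27RA kept their direction under every setting that could test them. IL10RB turned to -0.36 with voom and -0.81 with voom and sample quality weights, and ran from -0.61 to 0.61 over the fits that left out 1 dog, below 0 without CONT replicate 2, CONT replicate 3 or CPP-Se replicate 3. IL15RA ran from -0.34 to 0.092, above 0 without CONT replicate 2. The log2 ratio of IL7R to IL2RG ran from -0.28 to 0.28 when a dog was left out, and that of IL27RA to IL6ST was -0.12 with a pseudocount of 0.1. The causes were not tested. Receptor genes called numbered 0 in limma, 0 with voom, 1 with voom and sample quality weights, 3 with the negative binomial model and 0 with its t reference. Their median log2 fold change ran from -0.013 (without CONT replicate 3) to 0.49 when a dog was left out. The count of all genes called (3, all lower) was 12 (8 higher, 4 lower) after scaling to a common FPKM sum, 1 with voom, 156 with quality weights, 376 (138 higher, 238 lower) with the negative binomial model, 1 among genes of at least 5 FPKM, which removed 3 receptor genes, and 0 to 14 with a dog left out. It was 0 in limma without the filter (1857 at an unadjusted p under 0.05), with a pseudocount of 0.1 (1537) and in the negative binomial model with a t reference (1093), which was added after seeing the data. Scaling to a common sum moved the median of all genes to 0.13, or 0.12 without hemoglobin genes, so differences under those scalings are relative to that shift. Replicate numbers did not pair the dogs (correlations of same-numbered deviations 0.016, -0.090 and -0.043), and with a replicate block 1 gene was called among all, 3 receptor genes had an unadjusted p under 0.05 (1355 of all 9847 genes did), and the adjusted p was 0.302 for IL2RB, 0.274 for IL27RA and 0.258 for IL10RA. Depth limits IL10RB, IL15RA and IL6ST, with 11 to 66, 15 to 32 and 25 to 160 reads per dog, and most ligands.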
